A study of Mus musculus with 6 samples.

Results

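mmu-miR-103-3p and mmu-miR-107-3p are 2 mature miRNAs made from introns of the pantothenate kinase genes, and they are 2 of the 495 mature miRNAs in the count table. They were taken by name, and of repeated entries of a name the largest was taken. Small RNA from kidney tissue of male balb/c mice was sequenced in 3 Control and 3 chronic intermittent hypoxia (CIH) samples. The CIH mice breathed oxygen that dropped to 6% within 60 s and was back at 21% within another 60 s, with 30 such cycles an hour, 8 hours a day, over 8 weeks. The chamber of the Control mice was supplied with room air throughout. CIH models the repeated oxygen loss of obstructive sleep apnea, and the comparison asks which miRNAs of the kidney differ after it. Whole tissue was used, so fewer cells of a type and less RNA per cell cannot be told apart. Whether the samples are separate mice is not stated, and p-values therefore cover only the spread between these samples, which may be technical.

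Pantothenate kinases catalyse the first step of coenzyme A synthesis, and the miRNAs are transcribed together with these host genes. A miRNA recognises its mRNA targets mainly through the seed, the bases near its 5′ end, so miRNAs with the same seed share most predicted targets. In mouse liver and adipose tissue, miR-103 and miR-107 are known to lower insulin sensitivity, with caveolin-1, a regulator of the insulin receptor, as a direct target. They are also known to repress Dicer, the enzyme that cuts miRNA precursors.

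The mature sequences are shown because they set how well the reads of the 2 miRNAs can be told apart. Capitals mark the seed, bases 2 to 8. The last 3 lines are the other arms of the precursors.
mmu-miR-103-3p: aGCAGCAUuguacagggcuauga
mmu-miR-107-3p: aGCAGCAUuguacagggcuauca
mmu-miR-107-5p: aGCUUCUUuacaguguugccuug
mmu-miR-103-1-5p: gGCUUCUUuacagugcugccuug
mmu-miR-103-2-5p: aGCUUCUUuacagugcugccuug

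The 2 mature 3p sequences had the same seed and differed at 1 base, G22C, counted from 1 at the 5′ end with the base of miR-103-3p first. Their first 21 of 23 bases were identical, so a read that ends before base 22 fits both. How such reads were assigned is not given in the sources used here. All sequences are from RefSeq on GRCm38.p6.

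The precursors are shown because miR-103-3p is made from 2 of them, and capitals mark the mature 3p arm.
Mir103-1: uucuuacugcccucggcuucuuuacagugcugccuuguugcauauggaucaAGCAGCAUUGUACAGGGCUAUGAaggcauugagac
Mir103-2: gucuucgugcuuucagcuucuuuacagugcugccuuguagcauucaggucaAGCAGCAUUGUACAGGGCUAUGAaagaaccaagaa
Mir107: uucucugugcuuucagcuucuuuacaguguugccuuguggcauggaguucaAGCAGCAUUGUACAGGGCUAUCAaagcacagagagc

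On GRCm38, Mir103-1 lies on chromosome 11 from 35782396 to 35782481, plus strand, in an intron of Pank3. Mir103-2 lies on chromosome 2 from 131288052 to 131288137, plus strand, in an intron of Pank2. Mir107 lies on chromosome 19 from 34820687 to 34820773, minus strand, in an intron of Pank1. All 3 lie on the strand of their host gene, and in GENCODE release M21 no exon of the host overlaps them. The Mir103-1 and Mir103-2 precursors are identical at 69 of 86 positions, and the mature 3p arm is the same in both. Reads that lie within this arm therefore cannot be assigned to Pank3 or Pank2. The table lists mmu-miR-103-3p at 2 entries, whose counts differed by 156 to 345 reads per library, or 0.47% to 0.86% of the higher entry. Some reads were thus counted at 1 entry only, and the reason is not given in the sources used here.

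Library totals ran from 5431797 to 7741499 counts, and levels are given as CPM, counts scaled to a common library total, with totals adjusted by TMM, a normalization that assumes most miRNAs do not differ. By the marker miRNAs listed for the cell types of kidney and its surroundings, the libraries held 144364 to 205312 CPM of the 4 tubule markers. The 4 leukocyte markers summed to 837 to 997 CPM and the 3 skeletal muscle markers to 293 to 417 CPM. The liver marker miR-122-5p was at 48.1 CPM in Control replicate 3, 77.9 CPM in CIH replicate 3 and 17.4 to 21.0 CPM elsewhere. mmu-miR-205-5p, of urothelium, was at 0.50 CPM in CIH replicate 1 and at 18.6 to 38.8 CPM elsewhere.

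miR-103-3p was an abundant kidney miRNA and did not differ between CIH and Control beyond the spread of the samples. It had 5756, 4705 and 5819 CPM in Control replicates 1, 2 and 3, from 44303, 25923 and 39217 counts. In CIH replicates 1, 2 and 3 it had 5474, 5863 and 4809 CPM, from 43623, 42948 and 29445 counts. Each group thus held 2 libraries of similar level and 1 lower library, Control replicate 2 and CIH replicate 3, and the groups overlapped. The Control mean was 5427 ± 626 CPM (SD, n = 3) and the CIH mean was 5382 ± 533 CPM (SD, n = 3). The log2 fold change was -0.01 with a standard error of 0.12 (edgeR, quasi-likelihood, adjusted p = 0.998 over all 495 miRNAs). Its 95% interval ran from -0.28 to 0.26, a CIH to Control ratio of 0.823 to 1.20. By level it stood between position 26 and position 31 of the 495 in every library.

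miR-107-3p was present at a lower level and also did not differ beyond the spread. It had 1940.0, 2065 and 1471 CPM in Control replicates 1, 2 and 3, from 14931, 11376 and 9911 counts. In CIH it had 1911, 1712 and 1685 CPM, from 15224, 12538 and 10317 counts. The highest and the lowest library were both Control libraries, replicates 2 and 3, so all CIH values lay within the Control range. The Control mean was 1825 ± 313 CPM (SD, n = 3) and the CIH mean was 1769 ± 123 CPM (SD, n = 3). The log2 fold change was -0.04 (standard error 0.14, adjusted p = 0.955 from the same edgeR test), with a 95% interval from -0.35 to 0.26, a ratio of 0.785 to 1.20. It stood between position 52 and position 60 of the 495.

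**Figure D1:**
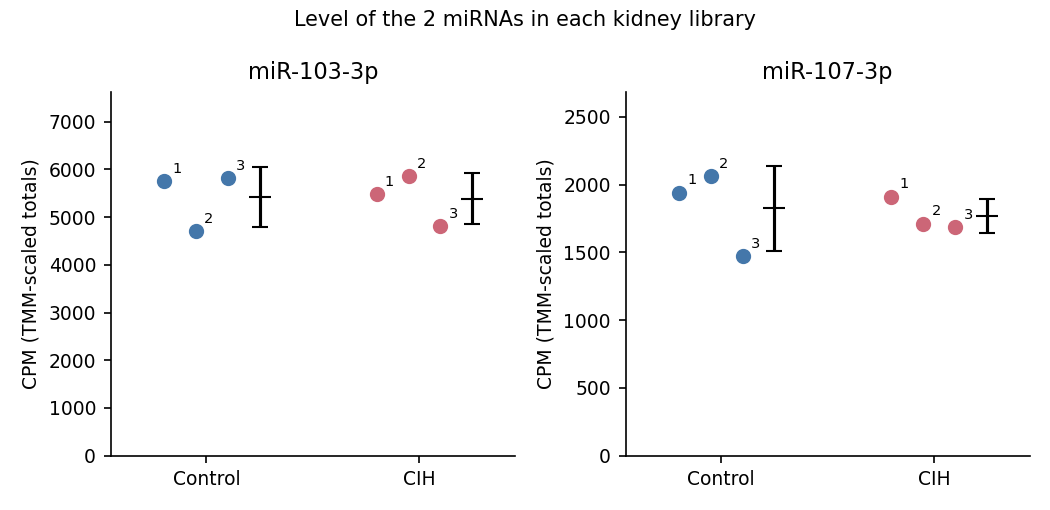
Level of miR-103-3p (left) and miR-107-3p (right) in CPM on TMM-scaled totals, 1 point per library with its replicate number, Control in blue and CIH in red, with the mean and SD of each group in black. The groups overlap for both, and Control replicate 2 is the lowest library for miR-103-3p and the highest for miR-107-3p.

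Because reads that stop short of base 22 fit both miRNAs, the counts of the 2 were also summed. The sum does not depend on how such reads were split, provided that each was counted at 1 of the 2 only. This is not stated, and the 2 entries of miR-103-3p, with the same mature sequence, had nearly equal counts. Reads that fit both miRNAs may therefore have been counted at each. The sum and the shares of both would then hold such reads more than once. The Control libraries had 7693, 6837 and 7291 CPM of the sum, and the CIH libraries had 7343, 7548 and 6491 CPM. Together the 2 miRNAs made up 0.673% to 0.772% of a library's counts. The log2 fold change of the sum was -0.03 (standard error 0.10, adjusted p = 0.973 from edgeR), with a 95% interval from -0.26 to 0.20. In Control the sum varied less than its parts, with a coefficient of variation of 5.88% against 11.5% for miR-103-3p and 17.2% for miR-107-3p. In CIH it was 7.86%, against 9.90% and 6.97%.

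None of these values was called. At an unadjusted p of at most 0.05, 0 of the 2 miRNAs passed, where 7.88% of all miRNAs did (39 of 495, edgeR). Neither had every CIH library beyond every Control library, which held for 12.5% of all miRNAs. At an adjusted p under 0.05, 0 of 495 (0%) passed edgeR's quasi-likelihood test, and DESeq2, edgeR's exact test and limma also gave 0, with 29, 35 and 35 at an unadjusted p of at most 0.05. The direction of the near-zero values turned with single libraries. The log2 fold change of miR-103-3p ran from -0.10, without Control replicate 2, to 0.06, without CIH replicate 3, and was also above 0 without Control replicate 1 or 3. That of miR-107-3p ran from -0.18, without Control replicate 3, to 0.05, without Control replicate 2. That of the sum was above 0 without Control replicate 1 (0.01) or CIH replicate 3 (0.03). With library totals only it was 0.05 for miR-103-3p, 0.01 for miR-107-3p and 0.04 for the sum.

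**Figure D2:**
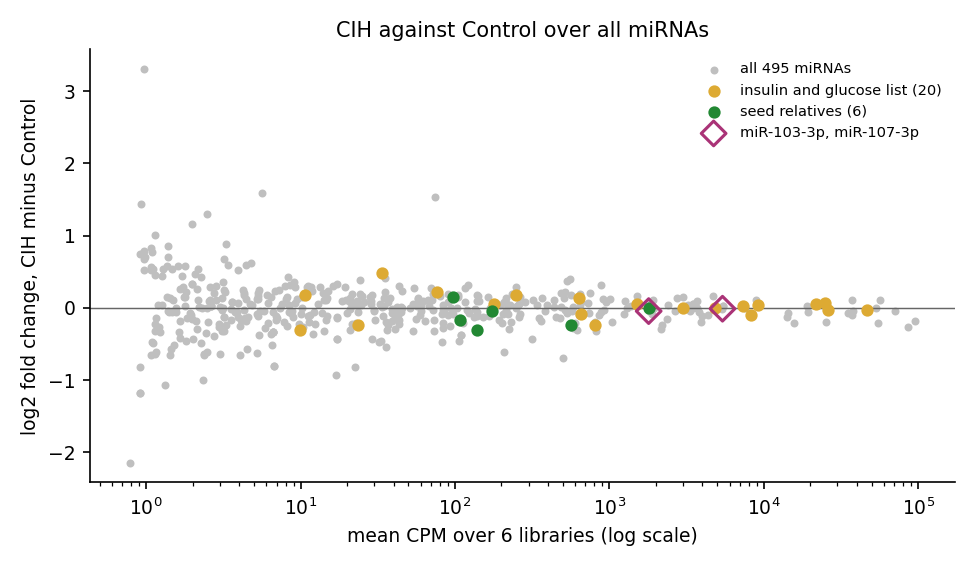
Log2 fold change of CIH minus Control (y axis) against mean CPM over the 6 libraries (x axis, log scale) for all 495 miRNAs in grey, with the 20 miRNAs of the insulin and glucose list in yellow, the 6 seed relatives in green and miR-103-3p and miR-107-3p as open diamonds. Both diamonds lie at 0 within their errors, at -0.01 and -0.04, and the green point inside the diamond of miR-107-3p is miR-16-5p.

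The ratio of the 2 miRNAs needs no scaling between libraries, and its mean was nearly the same in the groups. There were 2.97, 2.28 and 3.96 reads of miR-103-3p for each read of miR-107-3p in Control replicates 1, 2 and 3, and 2.87, 3.43 and 2.85 in CIH replicates 1, 2 and 3. The CIH libraries all lay between the lowest and the highest Control library. The mean log2 ratio was 1.58 ± 0.40 (SD, n = 3) in Control and 1.60 ± 0.15 (SD, n = 3) in CIH, a difference of 0.02 (exact permutation test over the 20 splits, two-sided, p = 1, where 0.1 is the smallest that 3 against 3 can give). Without Control replicate 2 the difference was -0.17, without CIH replicate 2 it was -0.06, and without Control replicate 3 it was 0.22.

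Within groups the ratio varied by far more than counting error. In Control replicate 2 the exact (Clopper-Pearson) 95% interval of the ratio was 2.23 to 2.33, and in Control replicate 3 it was 3.87 to 4.05. As a share of both, miR-103-3p took 69.5% of the counts in Control replicate 2 and 79.8% in Control replicate 3, and 74.1% to 77.4% in the CIH libraries. Such intervals cover counting error only, since PCR copies are not independent molecules. They also treat each read as counted at 1 of the 2 miRNAs only, which is not stated. The log2 ratio spanned 0.80 over the Control libraries and 0.26 over the CIH libraries, a difference in spread that was not tested. The libraries stood in the same order by the ratio as by the summed level of the 4 tubule markers miR-30a-5p, miR-192-5p, miR-194-5p and miR-204-5p. From the lowest ratio to the highest, those sums were 144364 CPM in Control replicate 2, 148044 in CIH replicate 3, 149736 in CIH replicate 1, 172047 in Control replicate 1, 172559 in CIH replicate 2 and 205312 in Control replicate 3. Of these sums, miR-30a-5p and miR-192-5p made up most, and the members did not all follow the order. miR-192-5p had the same lowest and highest library as the sum, while miR-30a-5p was lowest in CIH replicate 1, at 68790 CPM. miR-194-5p was lowest in Control replicate 3, at 8032 CPM, and highest in CIH replicate 1, at 10157 CPM. miR-204-5p was at 59.2 to 60.2 CPM in Control and 40.5 to 53.4 CPM in CIH. The order was not particular to the tubule markers. The sum of the 2 smooth muscle markers gave the same order, from 45238 CPM in Control replicate 2 to 52645 CPM in Control replicate 3. For the 2 endothelium markers the lowest and the highest library were also these, at 49948 and 59944 CPM. Other marker lists did not follow this order. The leukocyte sum had the opposite ends, highest in Control replicate 2 at 997 CPM and lowest in Control replicate 3 at 837 CPM. The erythrocyte sum was lowest in Control replicate 3 at 5339 CPM and highest in CIH replicate 3 at 7125 CPM. The skeletal muscle sum was lowest in CIH replicate 3 and highest in CIH replicate 2. These orders were noticed after the values were seen, and the part of any of these markers in the ratio was not tested.

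**Figure D3:**
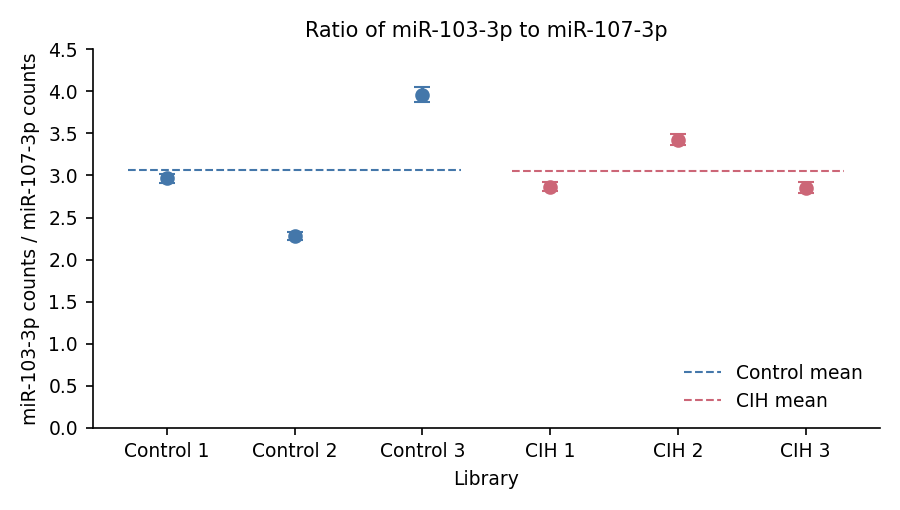
Counts of miR-103-3p divided by counts of miR-107-3p in each library, with exact 95% intervals for counting error, Control in blue and CIH in red, and the mean of each group as a dashed line. The means lie at 3.07 and 3.05, and the Control libraries spread from 2.28 to 3.96.

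To set this spread beside that of other near-identical miRNAs, all pairs of measured miRNAs of the same length that differ at 1 base were listed, with both at a mean of at least 10 CPM and a RefSeq sequence. This comparison was chosen after the ratio was seen. There were 14 such pairs, and miR-103-3p with miR-107-3p had the widest range of log2 ratio over the 6 libraries, 0.80. The other 13 ranged from 0.09, for miR-30a-3p with miR-30e-3p, to 0.68, for miR-30a-5p with miR-30e-5p, with a median of 0.32. The 5 others whose differing base was at position 16 or later ranged from 0.09 to 0.36. The log2 levels of the 2 members of a pair correlated positively over the 6 libraries in all 13 other pairs (Pearson r 0.25 to 0.99), whereas miR-103-3p and miR-107-3p had r = -0.41. These correlations are a description over 6 libraries that share preparation and scaling, and several pairs share a member. Reads that fit both members of a pair may also have been counted at each, and their part in r was not tested. The range was wider over the Control than over the CIH libraries in 10 of the 13 other pairs, as it was for miR-103-3p with miR-107-3p. The mean CIH minus Control difference of the log2 ratio was between -0.08 and 0.11 in the other pairs.

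**Figure D4:**
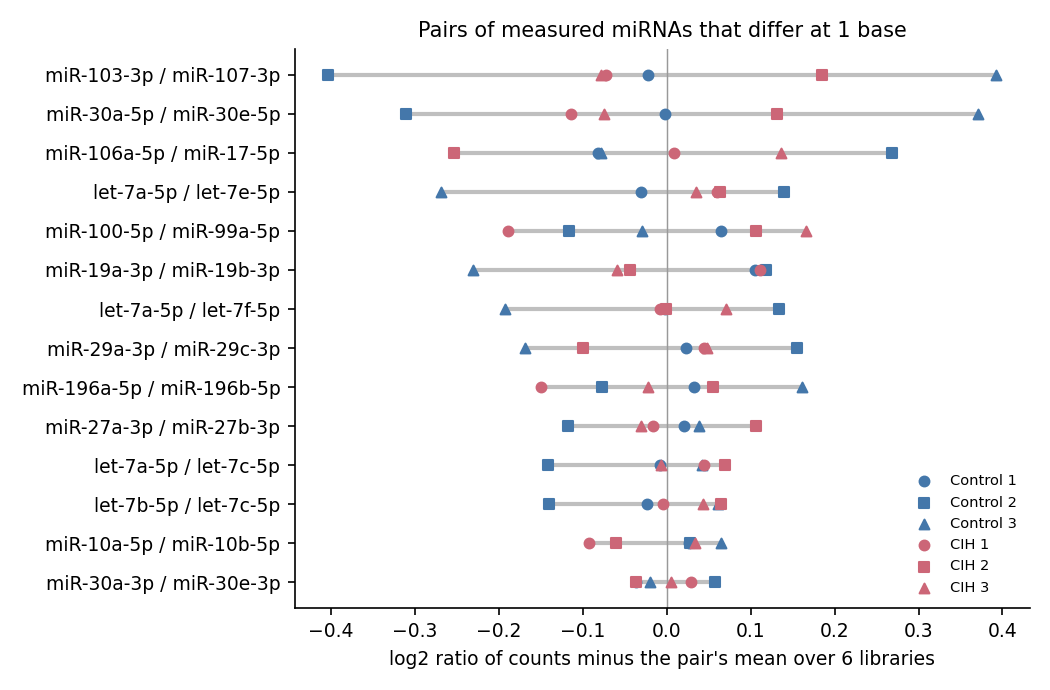
Log2 ratio of counts in each library minus the mean of the pair over the 6 libraries, for the 14 pairs of measured miRNAs that differ at 1 base, with Control in blue, CIH in red and the marker shape giving the replicate number. miR-103-3p with miR-107-3p, at the top, has the widest range, from Control replicate 2 on the left to Control replicate 3 on the right, and miR-30a-5p with miR-30e-5p follows with the same 2 libraries at its ends.

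The other arm of Mir107 was scarce. mmu-miR-107-5p, its passenger strand, had 7, 5 and 5 counts in the Control libraries, while CIH replicates 1, 2 and 3 had 7, 10 and 10, or 44 counts in all against 74297 of miR-107-3p. The 3p arm thus had 1982 to 2275 reads for each 5p read in Control and 1032 to 2175 in CIH. CIH replicates 2 and 3 had the lowest arm ratios and CIH replicate 1 lay within the Control range. The mean log2 ratio of 3p to 5p, with 0.5 added to each count, was 10.93 ± 0.10 (SD, n = 3) in Control and 10.38 ± 0.54 (SD, n = 3) in CIH (difference -0.55, exact permutation test, two-sided, p = 0.3). No entry of the table has the name miR-103-1-5p or miR-103-2-5p, so no arm ratio was computed for miR-103.

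miRNAs with AGCAGCA in their first 9 bases belong with miR-103 and miR-107 to a group that is known to act on cell division, metabolism and stress responses. In the relatives these letters are bases 2 to 8, while in miR-103-3p and miR-107-3p they start 1 base earlier, so the seeds overlap but are not the same. The relatives in the table are shown with bases 2 to 8 in capitals.
mmu-miR-16-5p: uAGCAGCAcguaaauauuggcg
mmu-miR-195a-5p: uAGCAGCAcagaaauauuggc
mmu-miR-322-5p: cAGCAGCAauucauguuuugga
mmu-miR-497a-5p: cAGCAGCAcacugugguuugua
mmu-miR-15a-5p: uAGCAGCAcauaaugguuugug
mmu-miR-15b-5p: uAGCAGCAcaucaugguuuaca

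miR-103-3p had more counts than any of the 6 relatives in every library, and miR-107-3p was close to miR-16-5p, which represses cell-cycle genes. The Control libraries had 1807, 1658 and 1952 CPM of miR-16-5p, and the CIH libraries had 1774, 1807 and 1833 CPM. Its log2 fold change was 0.00 with a standard error of 0.10 (edgeR, adjusted p = 0.998). miR-16-5p and miR-107-3p stood in opposite order in Control replicates 2 and 3, where miR-107-3p was higher and lower than it, respectively. miR-195a-5p and miR-497a-5p, which come from neighbouring genes, had the lowest log2 fold changes of the 6, at -0.24 (standard error 0.12) and -0.30 (standard error 0.12). The Control libraries had 149.3, 161.3 and 149.3 CPM of miR-497a-5p and the CIH libraries had 122.9, 119.0 and 131.2 CPM, so each CIH library lay below each Control library. It was the only 1 of the 6 relatives without overlap, where 12.5% of all miRNAs had none. It was also the only 1 at an unadjusted p of at most 0.05 (0.0257, adjusted p = 0.582, both from edgeR), where 7.88% of all miRNAs passed, and leaving out Control replicate 2 (unadjusted p = 0.0534) or either of CIH replicates 1 and 2 (0.0733 and 0.0717) ended this. With library totals only its unadjusted p from edgeR was 0.102. miR-15a-5p, miR-322-5p and miR-15b-5p were at -0.16, -0.04 and 0.16. The 6 relatives had a median log2 fold change of -0.10, where the median of all miRNAs tested was 0.00.

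**Figure D5:**
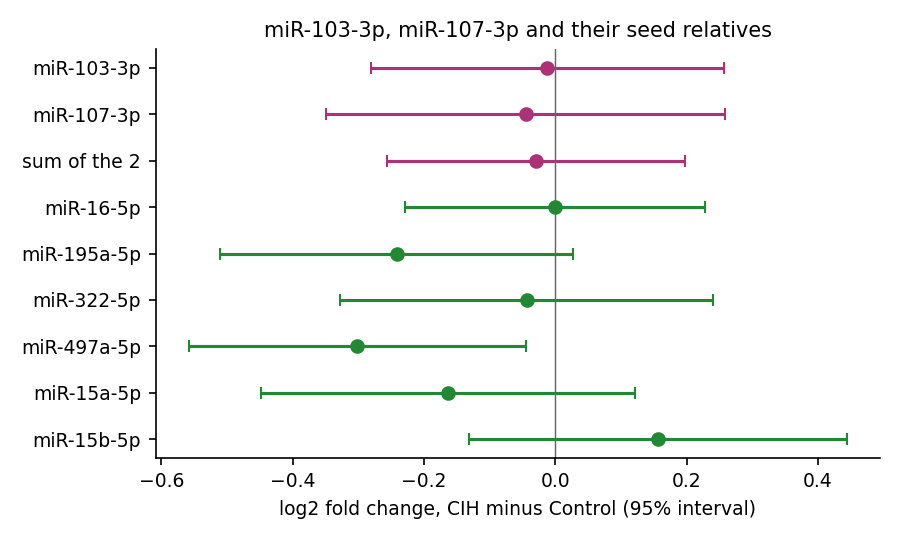
Log2 fold change of CIH minus Control with its 95% interval from edgeR for miR-103-3p, miR-107-3p and their sum (purple) and the 6 seed relatives in order of level (green). All intervals include 0 except that of miR-497a-5p, from -0.56 to -0.04 before adjustment for the number of miRNAs.

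Of 20 miRNAs listed for insulin signalling and glucose metabolism, all were measured, and the list as a whole lay near 0. It had 11 positive and 9 negative log2 fold changes with a median of 0.03. At an unadjusted p of at most 0.05, 1 of the 20 was lower in CIH and 0 were higher, against 25 lower and 14 higher of all 495 (7.88% in all), and none passed adjustment (lowest adjusted p = 0.582 from edgeR). The groups did not overlap in 3 of the 20, miR-29b-3p, miR-33-5p and miR-802-5p, against 12.5% of all miRNAs. The list's 3 most abundant members, miR-143-3p, let-7f-5p and let-7g-5p, had log2 fold changes of -0.03, -0.03 and 0.07. let-7 miRNAs repress the insulin receptor and its substrates in mice, and miR-143-3p has been tied to insulin resistance in mouse liver. The 1 lower miRNA was miR-29b-3p of the collagen-repressing miR-29 family, at 849, 900.4 and 895 CPM in the Control libraries, against 759, 753 and 721 CPM after CIH. Its log2 fold change was -0.24 (standard error 0.10, unadjusted p = 0.0324, adjusted p = 0.582 from edgeR), and the groups did not overlap. The unadjusted p was 0.0722, 0.0622 and 0.110 without CIH replicates 1, 2 and 3, 0.127 with library totals only and 0.0563 with edgeR's exact test. miR-33-5p, from an intron of Srebf2, a regulator of cholesterol synthesis, was scarce, with a Control mean of 10.9 ± 1.28 CPM (SD, n = 3) and a CIH mean of 8.78 ± 1.10 CPM (SD, n = 3). miR-378a-3p, from an intron of the metabolic coactivator gene Ppargc1b, had a Control mean of 21549 ± 766 CPM (SD, n = 3) and a CIH mean of 22301 ± 577 CPM (SD, n = 3).

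miR-34a-5p, a p53 target like miR-107 in human cells, and miR-210-3p, the best known target of hypoxia-inducible factor, were the listed companions for hypoxia. The log2 fold change was 0.18 for miR-34a-5p (standard error 0.12; edgeR, adjusted p = 0.792) and -0.32 for miR-210-3p (standard error 0.16; edgeR, adjusted p = 0.712). Neither passed, and both overlapped between the groups.

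Over the 6 libraries, miR-103-3p and miR-107-3p resembled different miRNAs. Pearson's r of log2(CPM + 0.5) was computed with the other 301 miRNAs of at least 10 CPM, as a description of 6 libraries that share a scaling. The 5 closest to miR-103-3p were miR-1a-3p, a muscle miRNA, miR-379-5p, miR-143-3p, a smooth muscle miRNA, miR-3535 and miR-542-3p, with r from 0.89 to 0.93. The 5 closest to miR-107-3p were miR-199b-3p, miR-199a-3p, miR-339-3p, miR-128-3p and miR-22-3p, with r from 0.92 to 0.96. miR-199a-3p and miR-199b-3p, miRNAs of mesenchymal cells, had nearly the same counts as each other and were at 4659 and 4656 CPM in Control replicate 3, their lowest library, as it was for miR-107-3p. miR-1a-3p was at 295 CPM in Control replicate 2 and 278 CPM in CIH replicate 3, the libraries that were also lowest for miR-103-3p, and at 349 to 400.0 CPM in the other 4. miR-103-3p itself stood at position 204 of the 301 in likeness to miR-107-3p.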

How the data were processed

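The submitters' processing notes name cutadapt and Bowtie, without their roles, and the authors deposited raw read counts, 584 entries for 495 mature miRNAs in 6 libraries. The study's methods name miRBase, and neither its release nor tool versions nor the treatment of reads fitting several miRNAs is given in the sources used here. A total of 44 miRNAs had repeated entries (133 entries), of which the largest was used. The filter asked for 3 libraries with reads of a miRNA and left out none of the 495. CIH was compared with Control by edgeR 4.0.16 (quasi-likelihood, TMM, condition as the only term, R 4.3.3) with Benjamini-Hochberg adjustment. The standard error was taken from the fold change and the F statistic. Ratios were compared by exact permutation tests in scipy 1.17.1 after adding 0.5 to each count. Alternatives used DESeq2 1.42.0 and limma 3.58.1, other filters, pseudocounts and scalings, a replicate block, and each library left out. Sequences came from RefSeq, with 413 of 495 names matched, and positions from GENCODE release M21. The scripts were tested on simulated data.

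The miRNAs, lists and tests were chosen with earlier results of these data known. Named miRNAs are the 2 members, the other arm, seed relatives, the 3 most abundant of each list, and the 5 closest in pattern to each member. Any other miRNA was picked with its values in view.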

Additional observations from a re-analysis of the deposited data

How the results depend on the processing

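With 17 alternatives each for miR-103-3p and miR-107-3p and 10 for their sum, none brought a call, and the lowest adjusted p was 0.702. There were also 10 alternatives each for their ratio and the arm ratio. These could not bring a call, because exact tests on so few libraries cannot reach a p of 0.05. Their lowest p from exact permutation tests were 0.4 for the ratio and 0.2 for the arm ratio. The 0.2 came without CIH replicate 1, which lay within the Control range. It is the smallest p that this test can give with a library left out. The log2 fold change of miR-103-3p changed sign with DESeq2 size factors (4.7e-05), the DESeq2 Wald test (4.4e-05) and library totals only (0.052), that of miR-107-3p with library totals only (0.011), and that of the sum with library totals only (0.041). With each library left out in turn, the ranges were -0.10 to 0.063 for miR-103-3p, -0.18 to 0.053 for miR-107-3p, -0.073 to 0.034 for the sum, -0.17 to 0.22 for the log2 ratio and -0.85 to -0.33 for the log2 arm ratio, with sign changes in all but the last. The count of miRNAs at an unadjusted p of at most 0.05 was 39 of 495 in the main edgeR fit. At a mean of at least 10 CPM it was 20, but there only miR-103-3p and 301 others were tested, so the 2 counts have different totals. With each library left out it was 21 to 67, lowest without CIH replicate 2 (22 without CIH replicate 1) and highest without Control replicate 2. The count at an adjusted p under 0.05 was 0 in all 17. Same-numbered libraries did not deviate together (r from -0.04 to 0.03 over all miRNAs), and with the replicate number as a block the log2 fold changes were -0.01, -0.03 and -0.03 for miR-103-3p, miR-107-3p and their sum. The unadjusted p of miR-497a-5p and miR-29b-3p then became 0.0586 and 0.0794 in edgeR. Summing the entries counts most miR-103-3p reads more than once and gave a log2 fold change of -0.05 for it. The counts of miR-107-5p, 5 to 10 per library, limit its arm ratio.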

Other observations

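The let-7 miRNAs of the insulin list moved with miR-107-3p over the Control libraries rather than with the condition. All 8 had their highest level in Control replicate 2, and 7 of the 8 had their lowest in Control replicate 3, the same extremes as miR-107-3p. let-7c-5p was at 11461 CPM in Control replicate 2, 6375 CPM in Control replicate 3 and 7561 to 8218 CPM in the CIH libraries. let-7e-5p, the exception, was lowest in CIH replicate 2, at 607 CPM. Both extremes together held for 10 of the 20 miRNAs of the insulin list, for 18 of the 68 miRNAs of at least 1000 CPM and for 56 of all 495, or 11.3%. The opposite, lowest in Control replicate 2 and highest in Control replicate 3, held for 47 of the 495, or 9.49%. Among the 68 of at least 1000 CPM it held for 12, or 17.6%, beside 26.5% for the let-7 pattern. The let-7 sequences are near-identical and share reads where these are not told apart, so the 8 are not independent. These counts were made after the values were seen, and no cause was tested.

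Within groups, the log2 level of miR-107-3p had a pooled SD of 0.20 and that of miR-103-3p of 0.16. Among the 68 miRNAs of at least 1000 CPM the median was 0.14, and the 2 stood at positions 22 and 29 from the most variable.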
